A study of Mus musculus with 42 samples.

Results

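Neurons that carried green fluorescent protein (GFP) in the amygdala of the G30 mouse line were compared with GFP-carrying neurons from the cingulate cortex of the same line. Both groups had 3 arrays, chosen by their titles, out of the 42 arrays in 14 groups of the series. The labels call the cingulate cells GFP expressing interneurons, and for the amygdala cells they name no class, only GFP-labelled neurons. The comparison sets neurons that the same line labels in these regions side by side.

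The 3 G30 amygdala arrays held RNA of 44, 61 and 63 hand-picked cells from mice of postnatal day 79, 65 and 60. The 3 G30 cingulate arrays held RNA of 61, 51 and 64 cells from mice of postnatal day 68, 57 and 59. These mice were male on a background mixed with C57BL/6j, except that the strain label of the first G30 cingulate array names only the G30 transgenic line. The labels name no promoter for the GFP, and the series design allows more than 1 animal per array. Both sets of cells were freed with pronase E, and their RNA was amplified before labelling. Further groups entered as points of reference. The 3 arrays of G30 interneurons from somatosensory cortex came from 41, 66 and 54 cells at postnatal day 57, 59 and 69. YFPH is a line with yellow fluorescent protein, and its amygdala neurons, also of no stated class, came from 90, 120 and 111 cells at P99, P106 and P91, where P is the postnatal day. The YFPH cingulate cells, labelled as layer 5 pyramidal neurons, came from 74, 105 and 57 cells, with an age for the first 2 arrays only (postnatal day 65 and 80). Pyramidal neurons of the YFPH hippocampus (P106, P99 and P91, the first with a record that marks an abnormal amplification) and CT6 cells appear only in levels and likeness across groups. CT6 cells are layer 6 pyramidal neurons of the cingulate cortex of C57BL/6j mice, traced by beads placed in the thalamus, at P80, P74 (2 animals pooled) and P82.

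Interneurons of the cortex release GABA, which the glutamic acid decarboxylases Gad1 and Gad2 make and the transporter Slc32a1 loads into vesicles. One of their classes is marked by vasoactive intestinal peptide (Vip). The principal neurons of the basolateral amygdala are spiny cells that release glutamate, share many genes with cortical pyramidal neurons and are known for their part in learned fear. In mice, gastrin-releasing peptide (Grp) is a known product of principal cells of the lateral amygdala.

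Values are probe-set intensities, and a difference is G30 amygdala minus G30 cingulate in log2(intensity + 16), so that a positive one means higher in the amygdala. Intensities of different probe sets cannot be set against each other. A gene is called at an adjusted p below 0.05 in limma's test with Benjamini-Hochberg adjustment over 9295 genes. The standard error (SE) of a difference pools the spread within all 14 groups. It and the p-value therefore do not measure the spread of the compared groups alone, which can be wider. The G30 amygdala arrays were scanned on 2 days, 1 array in the second scan year and 2 in the third. All 3 G30 cingulate arrays were scanned in the second year, on no day and with no array lot in common with the amygdala arrays. The ratio of the 3′ to the 5′ probe set of Gapdh (log2), a gauge of RNA quality and amplification, was 3.25 ± 0.43 on G30 amygdala arrays and 2.61 ± 0.26 on G30 cingulate arrays (SD, n = 3 each). The part of scan time and of this ratio in the differences was not tested as a cause, and the values with each taken into account stand in the closing section. No other group was scanned in the third year, so scan year as a block leaves the G30 amygdala side to its first array. A call lost with that block is thus a call lost without the other amygdala arrays. The arrays pool cells, so fewer cells of a type and less RNA per cell cannot be told apart.

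Of the 4 genes given as markers, Grp and Crym were high in the G30 amygdala neurons, and Gad1 and Vip were high in the G30 cingulate neurons. Grp had intensities of 3945, 4963 and 5339 on G30 amygdala arrays, against 94.2, 99.9 and 103 on G30 cingulate arrays. Crym, which encodes a thyroid-hormone-binding protein of the cytosol, had 3151, 2787 and 3716 on G30 amygdala arrays and 65.1, 76.0 and 71.04 on G30 cingulate arrays. Every amygdala array was far above every cingulate array for both genes. The differences were 5.36 ± 0.28 (SE) for Grp (adjusted p = 3.51e-17) and 5.21 ± 0.26 (SE) for Crym (adjusted p = 2.13e-17). Vip had 171, 171 and 157 on G30 amygdala arrays and 6464, 4437 and 6336 on G30 cingulate arrays, a difference of -4.96 ± 0.21 (SE) with an adjusted p of 5.33e-19. Gad1 had 66.4, 594 and 379 on G30 amygdala arrays, against 4012, 4892 and 4343 on G30 cingulate arrays (-4.03 ± 0.33 (SE), adjusted p = 6.31e-12). The Gad1 arrays of the amygdala did not reach those of the cingulate cortex, but they differed among themselves, with the first far below the others. Their SD was 1.52 (log2), a spread that the SE pooled over all groups does not show.

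**Figure D1:**
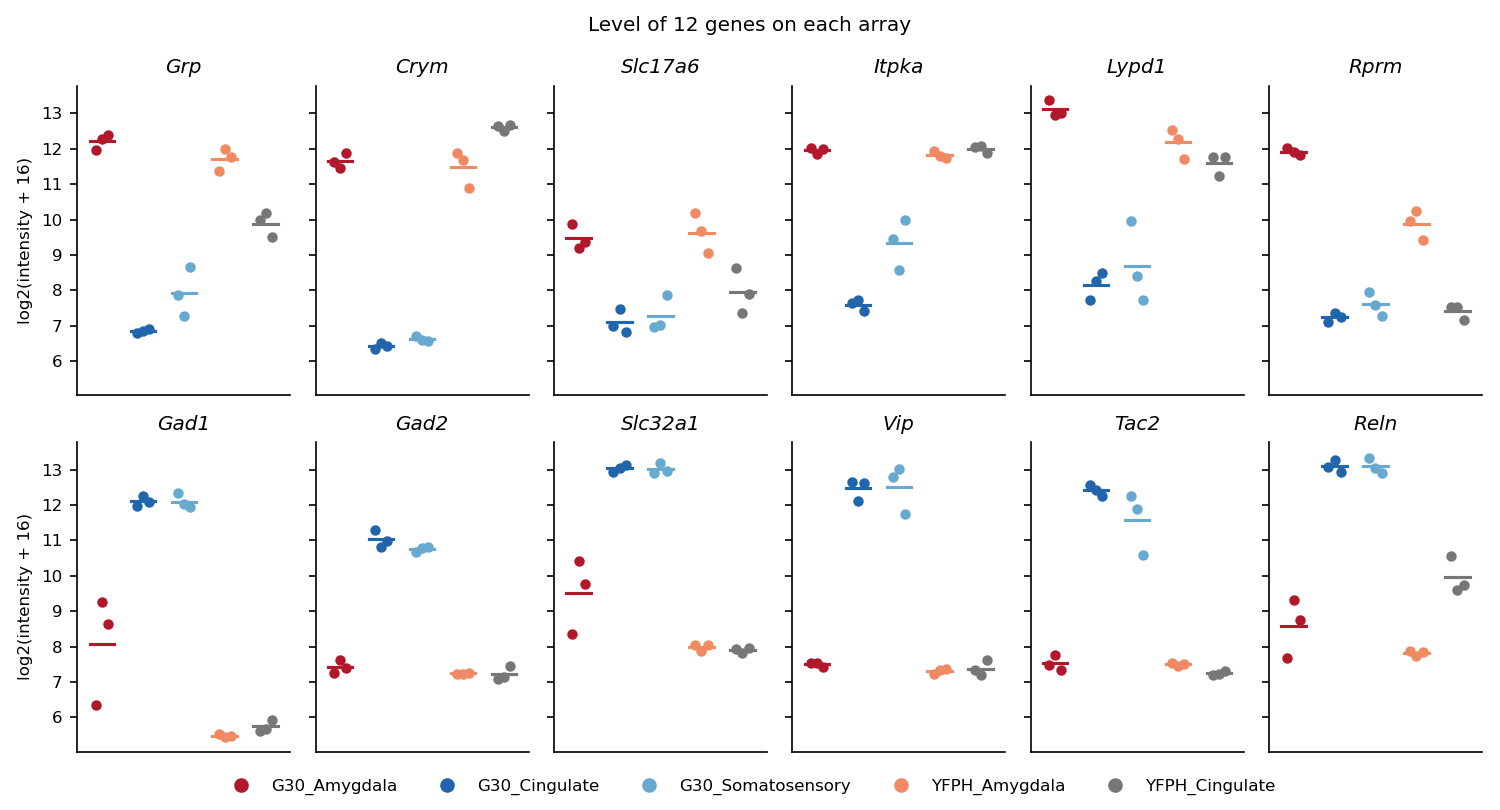
Level of 12 genes as log2(intensity + 16) on the vertical axis, 1 panel per gene; each point is 1 array, each bar the mean of the 3 arrays of a group. Grp, Crym, Itpka, Lypd1 and Rprm are high in G30_Amygdala and low in G30_Cingulate, and Gad1, Gad2, Slc32a1, Vip, Tac2 and Reln are the reverse; the 3 G30_Amygdala points spread widely for Gad1.

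In all, 2327 of 9295 genes were called (25.0%), 1294 higher in the G30 amygdala neurons (13.9%) and 1033 lower (11.1%). Of these, 464 differed at least 2-fold (4.99%), 236 of them higher (2.54%) and 228 lower (2.45%). Between the somatosensory and cingulate neurons of the G30 line limma called 17 genes (0.183%), with 520 below an unadjusted p of 0.05. Cingulate arrays 2 and 3 and somatosensory arrays 1 and 2 of that line share a scan day, an array lot and the ages P57 and P59, and G30 amygdala and cingulate arrays share none of these, so this count is not set against that of the amygdala. The median difference over all genes was 0.04 between G30 amygdala and G30 cingulate neurons. The groups' arrays did not overlap for 39.3% of the genes. The gene lists used below were chosen with earlier results of these data known. Their shares beside that of all genes are therefore descriptions and no test.

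Both measured genes of glutamate release were higher in the G30 amygdala neurons. Slc17a6, the vesicular glutamate transporter VGLUT2, had 929, 571 and 649 on G30 amygdala arrays and 112, 164 and 96.7 on G30 cingulate arrays (2.39 ± 0.31 (SE), adjusted p = 2.16e-07). Slc30a3, which loads zinc into glutamatergic vesicles, had 6507, 4602 and 4934 on G30 amygdala arrays and 1177, 1393 and 1178 on G30 cingulate arrays (2.07 ± 0.19 (SE), adjusted p = 1.21e-10). These 2 were the tested members of a list of 6 genes of glutamate release, and both rose, with a median of 2.23. No probe set with a single gene symbol measured Slc17a7, which was not analysed here.

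Many genes of dendritic spines and of calcium signalling in pyramidal cells were called higher in the G30 amygdala neurons. Of 22 tested members, Crym among them, 14 rose, 0 fell and 8 were not called (63.6% called beside 25.0% of all genes). Differences were as low as -0.40, with a median of 0.80 beside 0.04 over all genes. Itpka, an inositol trisphosphate kinase of spines, had 4144, 3699 and 4042 on G30 amygdala arrays and 185, 196 and 156 on G30 cingulate arrays (4.35 ± 0.19 (SE), adjusted p = 8.74e-19). Nrgn, the calmodulin-binding protein neurogranin, had 8144, 7174 and 7361 on G30 amygdala arrays and 438, 436 and 472 on G30 cingulate arrays (4.03 ± 0.31 (SE)). The 3 arrays of each group lay close together for both genes. Icam5, an adhesion molecule of telencephalic dendrites, rose by 3.24, and Baiap2, an actin regulator at the postsynaptic density, by 3.22. Ptk2b, a calcium-activated tyrosine kinase, rose by 2.69, Kalrn, an exchange factor that shapes spines, by 1.96, and Arpp21, a cyclic AMP-regulated phosphoprotein, by 1.77. Smaller rises were those of the scaffolds Shank3 (0.87) and Dlg4 (0.75) and of the kinase subunit Camk2b (0.70), whose call was lost without G30 amygdala array 1 and without G30 cingulate array 1 or 3. Camk2a, the alpha subunit of the same kinase, was below the filter on low values, and its probe set read 140.3, 136 and 137 on G30 amygdala arrays and 142, 142 and 134 on G30 cingulate arrays.

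Transcription factors of excitatory pallial neurons went the same way in part. Of 15 tested members 9 rose and 3 fell, with a median of 0.75. Fezf2, a determinant of deep-layer projection neurons in the cortex, had 936, 935 and 1188 on G30 amygdala arrays and 145, 149 and 145 on G30 cingulate arrays (2.66 ± 0.29 (SE), adjusted p = 4.81e-09). Zbtb18, a repressor needed in cortical projection neurons, had 3183, 3162 and 2848 on G30 amygdala arrays and 371, 680.4 and 428 on G30 cingulate arrays (2.64 ± 0.19 (SE)). Tbr1, a T-box factor of glutamatergic cortical and amygdala neurons, rose by 1.01, Neurod1 by 0.75 and Neurod2 by 0.69. Id2, an inhibitor of basic helix-loop-helix factors that some interneurons also express, fell by 2.91 and read 437, 320.4 and 343 on G30 amygdala arrays and 2882, 3300.3 and 2392 on G30 cingulate arrays. Neurod6, a factor of pyramidal neurons, was under the filter on low values over the whole series and had no test. Its intensities were 265, 726 and 453 on G30 amygdala arrays and 17.0, 9.0 and 11.6 on G30 cingulate arrays, with no overlap.

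Among the 15 called genes with the largest rise, several belong to none of these groups. Lypd1, a membrane-anchored modulator of nicotinic receptors, had 10602, 7964 and 8302 on G30 amygdala arrays and 197, 291 and 342 on G30 cingulate arrays (4.96 ± 0.30 (SE), adjusted p = 4.66e-15). Rprm, known as an inhibitor of the cell cycle downstream of p53, had 4149, 3844 and 3588 on G30 amygdala arrays and 122, 149.6 and 136 on G30 cingulate arrays (4.67 ± 0.19 (SE), adjusted p = 3.2e-19). Both groups were tight for Rprm. Its standard error, which pools the spread of all groups, was among the smallest of the 15. The neurofilament genes Nefm (4.03) and Nefl (3.30) rose too, and so did Hpcal1 (2.91), a calcium sensor of the hippocalcin family. The secreted synaptic protein gene C1ql3 rose by 3.09, and Matn2, which encodes the matrix protein matrilin, by 3.28. Rasl11b, a small GTPase, rose by 3.27. Myo5b, the motor myosin Vb, had 943, 1382 and 1904 on G30 amygdala arrays and 73.9, 275 and 105 on G30 cingulate arrays (3.22 ± 0.42 (SE)). Its standard error, pooled over all groups, was the widest of the 15.

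The genes of GABA synthesis and transport were the reverse. All 4 tested members fell, with a median of -3.57. Slc32a1, the vesicular GABA transporter, had 311, 1356 and 848 on G30 amygdala arrays and 7832, 8485 and 8911 on G30 cingulate arrays (-3.53 ± 0.29 (SE), adjusted p = 8.84e-12). Gad2 had 136, 181 and 153 on G30 amygdala arrays and 2474, 1800.2 and 2019.5 on G30 cingulate arrays (-3.61 ± 0.19 (SE), adjusted p = 4.51e-17). Abat, which breaks GABA down, had 333, 319 and 229 on G30 amygdala arrays and 2174, 2438 and 2269 on G30 cingulate arrays (-2.91 ± 0.16 (SE)). No amygdala array came near a cingulate array for any of the 4 genes. Second probe sets of Slc32a1 (-0.14, adjusted p = 0.284) and Abat (0.27, adjusted p = 0.232) were not called.

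Genes listed for VIP and CCK interneurons fell with them, 11 of 17 tested members and 0 higher (64.7% called beside 25.0% of all genes), with a median of -1.67. Not all members are particular to these cells. Reln and Npy had mean log2 levels of 13.48 and 13.55 in fluorescent cingulate neurons of the GIN line (P63 to P78). In G30 cingulate neurons these were 13.10 and 13.29. Tac2, the precursor of neurokinin B, had 161, 202 and 147 on G30 amygdala arrays and 6082, 5468 and 4826 on G30 cingulate arrays (-4.88 ± 0.21 (SE), adjusted p = 6.9e-19). The matrix glycoprotein gene Reln had 189, 627 and 419 on G30 amygdala arrays and 8608, 9956 and 7836 on G30 cingulate arrays (-4.51 ± 0.31 (SE)). The chemokine gene Cxcl14 (-3.88), the growth factor gene Igf1 (-3.81) and the ionotropic serotonin receptor gene Htr3a (-2.75) fell as well. Npy, the precursor of neuropeptide Y, had 305, 1191 and 2723 on G30 amygdala arrays and 11619.8, 9561 and 9036 on G30 cingulate arrays (-3.30 ± 0.35 (SE), adjusted p = 4.81e-09). Its amygdala arrays spread widely (SD of 1.56 in log2, wider than the pooled SE shows) and its cingulate arrays did not (SD of 0.19). Cck, cholecystokinin, fell by less (-1.28 ± 0.14 (SE), adjusted p = 1.32e-08) and remained bright in both groups, with 4335, 4388 and 4193 on G30 amygdala arrays and 11663, 9892 and 10066 on G30 cingulate arrays. Of somatostatin and parvalbumin interneuron genes 4 of 9 fell and 0 rose (44.4% called beside 25.0% of all genes), with a median of -0.33. Sst had 383, 365 and 409 on G30 amygdala arrays and 3139, 1642 and 1552 on G30 cingulate arrays (-2.33 ± 0.36 (SE)). Pvalb was not called, with 502, 541 and 491 on G30 amygdala arrays and 475, 484 and 527 on G30 cingulate arrays (0.05 ± 0.23 (SE), adjusted p = 0.918).

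Of 9 tested interneuron transcription factors 5 fell and 1 rose (66.7% called beside 25.0% of all genes), with a median of -0.48. The homeobox gene Dlx1, which acts in GABA neurons from their birth in the ventral forebrain, had 30.3, 161 and 57.1 on G30 amygdala arrays and 1946, 1898 and 1736 on G30 cingulate arrays (-4.47 ± 0.24 (SE), adjusted p = 1.85e-16). A probe set annotated to its antisense transcript, Dlx1as, fell by 4.10. Dlx2 fell by 0.98, with 189, 185 and 166 on G30 amygdala arrays and 394, 359.5 and 359 on G30 cingulate arrays, and Zeb2 by 1.45. The member that rose was Satb1 (1.53), a chromatin organiser that excitatory neurons also express. Others among the 15 called genes with the largest fall were the collagen gene Col19a1 (-4.01), Eps8 (-3.79), an actin regulator, Grik1 (-3.56), a kainate receptor subunit, and Pnoc (-3.39), the precursor of nociceptin.

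**Figure D2:**
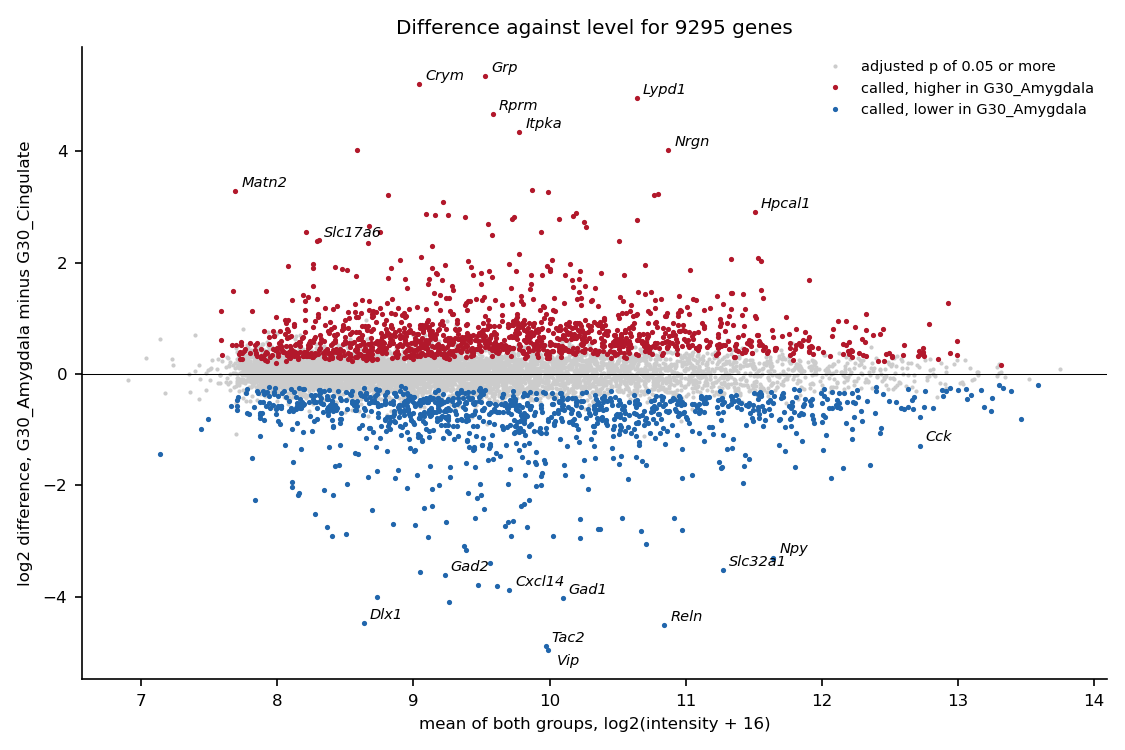
Difference between G30_Amygdala and G30_Cingulate on the vertical axis (log2) against the mean level of both groups on the horizontal axis, 1 point per tested gene. Grp at 5.36 is the highest and Vip at -4.96 the lowest of the 9295 genes; called genes are coloured by direction.

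Some signal of Gad1 and Slc32a1, 2 of the 4 GABA genes, remained on part of the G30 amygdala arrays. The first G30 amygdala array was lowest of its group for 12 of the 15 called genes with the largest fall. The others were Vip, Tac2 and Grik1. In percent of the G30 cingulate mean, the G30 amygdala arrays read 3.03, 11.8 and 27.0 for Npy and 3.14, 13.5 and 6.53 for Igf1. The gap was small for some, as for Col19a1 (5.01, 5.61 and 5.1). Gad1 read 481 to 645 on unsorted cingulate arrays of the GIN line. Gad1 read 30.3, 27.3 and 28.4 on YFPH amygdala arrays, so that the first G30 amygdala array, at 66.4, lay nearer to these than the other two, at 594 and 379. Slc32a1 read 249, 219 and 248 on YFPH amygdala arrays, and the first G30 amygdala array (311) again lay nearest to them. Gad2 and Abat were not called against YFPH amygdala neurons. Gad2 read 136 to 181 on G30 amygdala arrays and 135 to 137 on YFPH amygdala arrays. The first G30 amygdala array is also the only one of its group scanned in the second scan year. Set alone against the G30 cingulate arrays of that year, with its spread taken from the other groups, it gave a Gad1 difference of -5.74 ± 0.19 (SE) and a Grp difference of 5.11 ± 0.37 (SE). These genes were chosen with the same array in the mean, so this is no independent test.

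Promoters of 4 of these genes are shown to set letters beside the genes that moved together, with 2 genes from the higher and 2 from the lower set. Nrgn, Vip and Gad2 were picked because, among the 15 largest genes in each direction, they were the only ones whose promoter held a motif (1 of 9 promoters of higher genes, 2 of 11 of lower genes), and Itpka as one without. The sequences are RefSeq's, build GRCm38.p6, and cover the 250 bases before the annotated start. Capitals mark 2 motifs searched on both strands, written as the printed strand reads (CATCTG and CGTCA where the match is on the other strand). These are CAGATG, an E-box of the kind bound by NeuroD factors, and TGACG, the core of a cyclic AMP response element. Also searched was TAATTA, the core bound by many homeodomain proteins such as those of the Dlx family, which was in none of the 4. Nrgn (minus strand, chr9:37552746-37552995) has CAGATG at position -208, counted back from the start to the far end of the match, and Itpka (plus strand, chr2:119742087-119742336) has no match. Vip (plus strand, chr10:5638968-5639217) has TGACG at position -79. Gad2 (plus strand, chr2:22622077-22622326) has CAGATG at position -76 and TGACG at position -33.
Nrgn: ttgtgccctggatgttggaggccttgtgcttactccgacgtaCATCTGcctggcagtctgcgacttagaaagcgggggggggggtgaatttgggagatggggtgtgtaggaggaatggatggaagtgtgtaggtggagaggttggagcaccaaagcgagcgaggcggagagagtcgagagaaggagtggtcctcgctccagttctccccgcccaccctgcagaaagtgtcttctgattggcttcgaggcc
Itpka: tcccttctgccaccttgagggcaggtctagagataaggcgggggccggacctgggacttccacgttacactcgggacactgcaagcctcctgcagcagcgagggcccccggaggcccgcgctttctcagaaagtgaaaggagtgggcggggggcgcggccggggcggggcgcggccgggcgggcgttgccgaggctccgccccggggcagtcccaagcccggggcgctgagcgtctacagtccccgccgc
Vip: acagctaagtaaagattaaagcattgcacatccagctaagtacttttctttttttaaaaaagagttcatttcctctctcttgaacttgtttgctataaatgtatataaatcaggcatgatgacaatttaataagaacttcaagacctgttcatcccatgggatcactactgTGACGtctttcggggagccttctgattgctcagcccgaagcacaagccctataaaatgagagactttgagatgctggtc
Gad2: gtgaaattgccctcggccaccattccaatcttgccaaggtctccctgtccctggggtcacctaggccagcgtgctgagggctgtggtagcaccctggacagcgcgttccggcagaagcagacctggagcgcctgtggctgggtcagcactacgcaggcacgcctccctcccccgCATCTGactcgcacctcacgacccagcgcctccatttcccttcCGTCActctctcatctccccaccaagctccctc

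For each motif the share among higher and among lower genes was at or below the share over all tested genes. CAGATG was found in 9.73% of 185 promoters of genes called at least 2-fold higher in the G30 amygdala, in 6.78% of 177 promoters of genes at least 2-fold lower, and in 9.9% of 7488 promoters of tested genes. TAATTA was found in 2.16%, 1.69% and 2.48% of the same sets. TGACG was found in 20.5% of the promoters of higher genes, 25.4% of those of lower genes and 26.5% of all. These shares are descriptions and were not tested.

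Genes known to mark nuclei of the amygdala gave mixed counts. Of 13 tested members of the basolateral list 6 rose and 2 fell (61.5% called beside 25.0% of all genes). Their median of 0.07 was close to that of all genes. Beside Grp, Lypd1 and Slc30a3, the calcium sensor gene Otof rose by 0.88 and the LIM-domain gene Lmo4 by 1.07. The Wnt antagonist gene Dkk3 fell by 1.20, with 308, 612 and 413 on G30 amygdala arrays and 984, 927 and 1103 on G30 cingulate arrays. Rspo2, a secreted activator of Wnt signalling known from basolateral principal cells, was not called (-0.34 ± 0.28 (SE), adjusted p = 0.404). It had 163, 283 and 217 on G30 amygdala arrays and 234, 250.2 and 365 on G30 cingulate arrays. Of 13 tested genes of the central and intercalated nuclei 1 rose and 2 fell (23.1% called, near the 25.0% of all genes), with a median of -0.12. The riser was the retinoic acid receptor gene Rarb (0.32), whose call was lost with median centring and with scan year as a block, among other settings. Those that fell were Tac2 and Sst, both also interneuron genes. Prkcd, a kinase of central amygdala neurons, had 682, 527 and 552 on G30 amygdala arrays and 685, 595 and 630.4 on G30 cingulate arrays (-0.12, adjusted p = 0.621). Of 5 tested genes of the medial amygdala limma called 0, with 1 below an unadjusted p of 0.05 and a median of -0.03.

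Of 18 tested neuropeptide precursors 2 rose and 6 fell (44.4% called beside 25.0% of all genes), with a median of -0.16. The risers were Grp and Adcyap1, the precursor of PACAP, which had 273, 637 and 509.9 on G30 amygdala arrays and 226, 218 and 231 on G30 cingulate arrays (0.94 ± 0.22 (SE), adjusted p = 0.00137), a call lost with scan year as a block. The 6 that fell were Vip, Tac2, Pnoc, Npy, Sst and Cck. Of 20 tested peptide receptors, with a median of 0.14, 1 was called (5.0% beside 25.0% of all genes), the cholecystokinin receptor gene Cckbr. It had 1646, 2879.7 and 2396 on G30 amygdala arrays and 382, 226 and 329 on G30 cingulate arrays (2.82 ± 0.21 (SE), adjusted p = 9.01e-13). Its ligand gene Cck fell in the same neurons. Of 18 monoamine, acetylcholine and cannabinoid receptors, with a median of 0.03, 0 rose and 2 fell, Htr3a and the cannabinoid receptor gene Cnr1. Cnr1 had 302, 344 and 341 on G30 amygdala arrays and 977, 1065 and 1224 on G30 cingulate arrays. The 11.1% called in this list is below the 25.0% of all genes.

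Called channel and transmitter receptor genes lay in both directions. Of 35 tested potassium and HCN channel genes 4 rose and 7 fell, with a median of -0.05. The 31.4% called is near the 25.0% of all genes. Kcnmb2, an auxiliary subunit of BK channels, had 159, 183 and 146 on G30 amygdala arrays and 816, 1005 and 1054 on G30 cingulate arrays (-2.45 ± 0.24 (SE)), while Kcnmb4, another such subunit, had 2139, 2662 and 2670.1 on G30 amygdala arrays and 609.8, 999 and 553 on G30 cingulate arrays (1.81 ± 0.21 (SE)). The pore-forming BK gene Kcnma1 rose by 1.27, a call lost with scan year as a block. Kcnn2, the calcium-activated SK2 channel, had 223, 245 and 228 on G30 amygdala arrays and 1184, 1335 and 1262 on G30 cingulate arrays (-2.36 ± 0.14 (SE), adjusted p = 3.46e-15). Kcnc1, a fast delayed rectifier of the Kv3 family, fell by 1.65. Of 19 sodium and calcium channel genes 2 rose and 6 fell (42.1% called beside 25.0% of all genes), with a median of -0.08. The number higher was 0 with scan year as a block, with the Gapdh ratio as a covariate, without the second G30 amygdala array and without the first G30 cingulate array. Scn1a, the sodium channel Nav1.1 known from interneurons, fell by 0.94, and the calcium channel subunit genes Cacna2d2 and Cacnb4 fell by 1.02 and 0.98. Of 10 ionotropic glutamate receptor genes 3 rose, Grik5 (0.78), Gria3 (0.65) and Gria2 (0.43), and 2 fell, Grik1 and Grik2 (-0.59), with a median of 0.12. The share called was 50.0%, beside 25.0% of all genes. The call of Gria3 was lost under 10 of 21 alternatives, each left-out G30 array among them. That of Gria2 was lost with the Gapdh ratio as a covariate, without the first G30 cingulate array and in the second scan year only, the last of which also lost Grik2. Of 6 GABA-A receptor genes 2 rose, Gabrb1 (0.70) and Gabre (0.40), and 0 fell, with a median of 0.36, so 33.3% were called beside 25.0% of all genes. Both calls were lost with scan year as a block. Of the 2 tested genes of metabotropic receptors, Grm8 and Gabbr1, limma called 0, with 0 below an unadjusted p of 0.05.

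Axon guidance genes that were called lay mostly on the amygdala side, with 15 of 31 tested members higher and 1 lower, and a median of 0.20. The 51.6% called stands beside 25.0% of all genes. With scan year as a block 8 of the 31 were called higher. Nrp1, the receptor neuropilin, had 611, 498 and 681 on G30 amygdala arrays and 124, 139 and 153 on G30 cingulate arrays (1.98 ± 0.24 (SE), adjusted p = 5.41e-08). Its ligand gene Sema3a rose by 1.43, the ephrin receptor gene Epha5 by 1.47, and the netrin receptor gene Neo1 by 1.32. Robo1, a receptor for Slit proteins, had 114, 159 and 155 on G30 amygdala arrays and 551, 586 and 857 on G30 cingulate arrays (-2.09 ± 0.24 (SE)), whereas the ligand genes Slit2 (1.10), Slit3 (0.78) and Slit1 (0.50) rose. The calls of Slit3 and Slit1 were lost with scan year as a block. Of 17 cadherins and protocadherins 6 rose and 2 fell (47.1% called beside 25.0% of all genes), with a median of 0.20. Cdh22 had 2555, 1907 and 2692 on G30 amygdala arrays and 284, 655 and 318 on G30 cingulate arrays (2.55 ± 0.33 (SE)). Cdh13, an anchored cadherin without a cytoplasmic tail, rose by 1.61. Pcdh20 had 237, 283 and 168 on G30 amygdala arrays and 1507, 1272 and 1754 on G30 cingulate arrays (-2.65 ± 0.20 (SE), adjusted p = 6.43e-13).

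**Figure D3:**
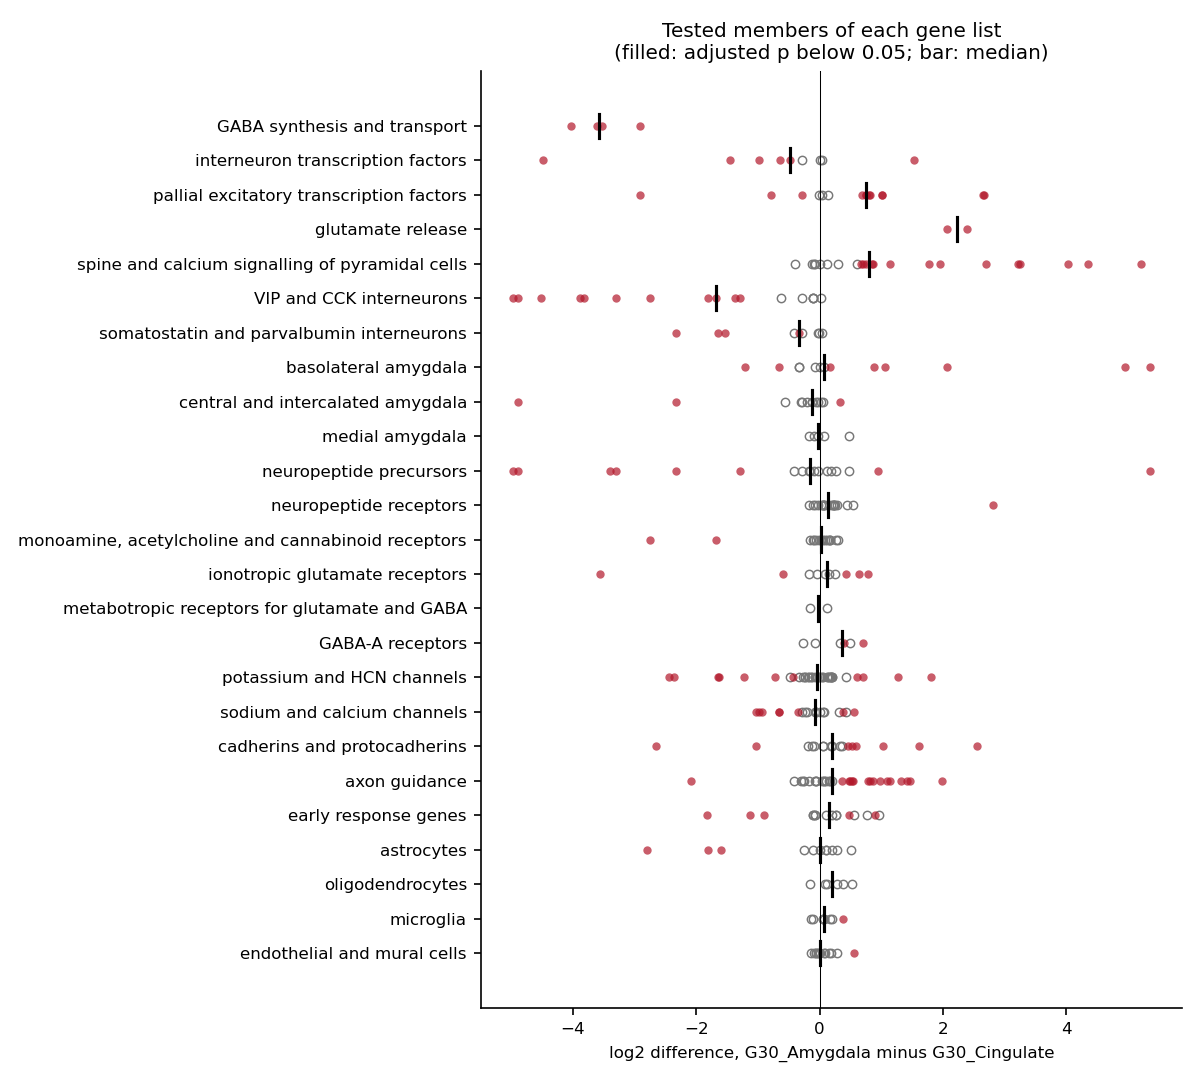
Difference between G30_Amygdala and G30_Cingulate (log2, horizontal axis) of each tested member of the 25 gene lists, 1 row per list; filled points were called, open points were not, and the black bar is the list's median. GABA synthesis and transport has a median of -3.57 and spine and calcium signalling one of 0.80.

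Early response genes, which neurons switch on with activity or stress, gave 2 higher and 3 lower of 16, with a median of 0.16. The 31.2% called is near the 25.0% of all genes, and 1 was higher with scan year as a block. Fos had 768, 1429 and 1249.7 on G30 amygdala arrays and 2927, 4188 and 5082 on G30 cingulate arrays (-1.82 ± 0.40 (SE), adjusted p = 0.000649). Dusp1 and Ier2 fell by 1.13 and 0.90, and Egr4 and Bdnf rose by 0.89 and 0.48. The call of Bdnf was lost with scan year as a block and with the Gapdh ratio as a covariate, among other settings.

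Summed markers of astrocytes and oligodendrocytes were below those of unsorted cells in both groups. Of 11 tested astrocyte genes 3 fell and 0 rose, with a median of 0.003, among them Glul, glutamine synthetase, with 461, 939 and 957 on G30 amygdala arrays and 5348, 4874 and 5626 on G30 cingulate arrays. Aldoc (-1.81) and Sparcl1 (-1.59) were the others that fell. The 27.3% of astrocyte genes called is near the 25.0% of all genes. The summed intensity of 15 astrocyte genes was 8795 to 10873 on G30 amygdala arrays and 16387 to 19096 on G30 cingulate arrays, and 42709 to 49627 on arrays of unsorted cingulate cells of the GIN line. Gfap, a defining astrocyte gene, read 229, 264 and 258 on G30 amygdala arrays and 239.7, 226 and 229 on G30 cingulate arrays. The part of astrocyte RNA in these differences was not tested. The 12 oligodendrocyte genes summed to 3088 to 3632 on G30 amygdala arrays and 2696 to 3124 on G30 cingulate arrays, against 17562 to 23299 on the unsorted arrays. Of 6 tested oligodendrocyte genes limma called 0, with 1 below an unadjusted p of 0.05 and a median of 0.20. Of 9 microglial genes 1 rose, Tyrobp (0.38), and of 13 endothelial and mural genes 1 rose, Vtn (0.56), both calls being lost with scan year as a block. The shares called, 11.1% of microglial and 7.69% of endothelial and mural genes, are below the 25.0% of all genes. The 14 microglial genes summed to 4668 to 5283 on G30 amygdala arrays and 4474 to 4719 on G30 cingulate arrays. The 16 endothelial and mural genes summed to 5405 to 5690 on G30 amygdala arrays and 5295 to 5785 on G30 cingulate arrays.

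Against the G30 interneurons of somatosensory cortex the same amygdala arrays gave 2318 called genes (24.9%), 1221 higher (13.1%) and 1097 lower (11.8%). Both comparisons share the amygdala arrays, so their values stand side by side. Crym had 89.1, 80.6 and 78.4 on G30 somatosensory arrays, close to the cingulate arrays, and the amygdala exceeded them by 5.03 ± 0.26 (SE). Grp had 217, 139 and 385 on G30 somatosensory arrays (4.28 ± 0.28 (SE)) and Vip 7047, 8321 and 3435 (-5.01 ± 0.21 (SE)). For Itpka and Nrgn the somatosensory arrays read above the cingulate ones. Itpka had 688, 365 and 990.3 on G30 somatosensory arrays and differed by 2.62 ± 0.19 (SE), and Nrgn had 2397, 1162 and 3345 and differed by 1.83 ± 0.31 (SE). Of the 22 spine and calcium genes 12 rose and 0 fell (54.5% called beside 24.9% of all genes), with a median of 0.56. The 4 GABA genes all fell again, with a median of -3.42. Spon1, a secreted adhesion protein, had 3456, 2951 and 3178 on G30 amygdala arrays and 401, 234 and 362 on G30 somatosensory arrays (3.23 ± 0.35 (SE), adjusted p = 7.7e-09).

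Over all tested genes, the G30 amygdala arrays were most like each other and next most like the YFPH amygdala arrays. Pearson's r, averaged over pairs of arrays and taken across 9295 genes, was 0.971 among the G30 amygdala arrays and 0.937 with YFPH amygdala arrays. With YFPH and CT6 pyramidal groups of cingulate cortex, CT6 being layer 6 cells, it was 0.919 and 0.918. With the G30 somatosensory and G30 cingulate arrays, the same line, it was 0.888 and 0.882. All arrays share a platform and an amplification, and genes are not independent replicates, so these are descriptions without a test.

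**Figure D4:**
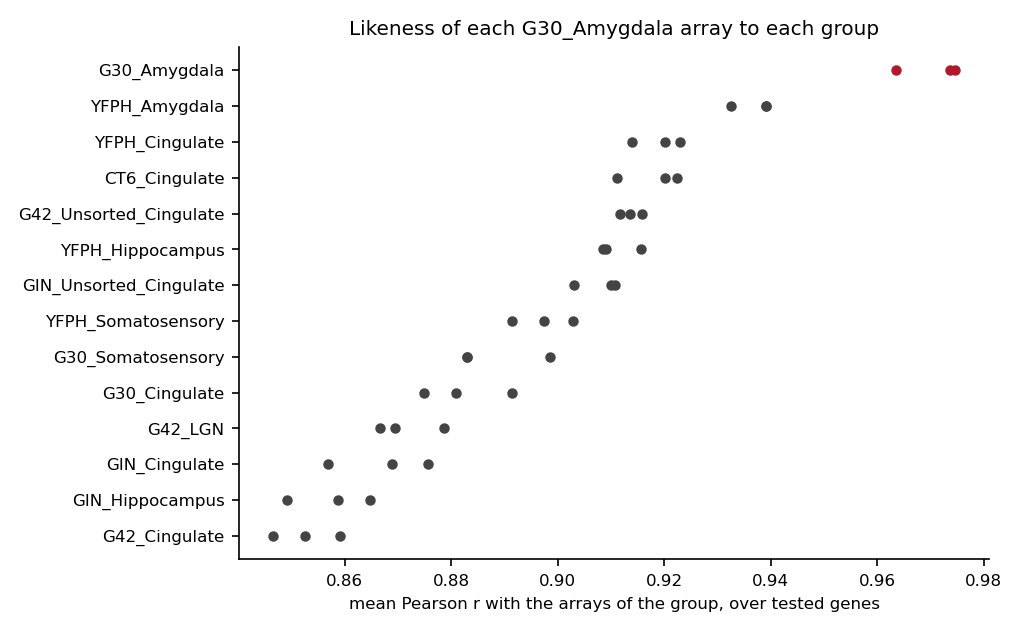
Mean Pearson r of each of the 3 G30_Amygdala arrays (points) with the arrays of each of the 14 groups, across 9295 genes. YFPH_Amygdala follows the group itself, at 0.937 on average, and G30_Cingulate stands at 0.882.

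The amygdala neurons of both lines were then compared. Limma called 1614 genes (17.4%), 758 higher in the G30 amygdala neurons (8.15%) and 856 lower (9.21%). This count moved with the setting and was 511 with the Gapdh ratio as a covariate and 995 without the third G30 amygdala array. It was 1007 without the second YFPH amygdala array, whose record marks an abnormal amplification. With scan year as a block, where the G30 side rests on its first amygdala array, the count was lowest. Single genes of this comparison and of the interaction given below were not followed through the alternatives. All YFPH amygdala arrays were scanned in the first scan year and no G30 amygdala array was, and the YFPH mice were older, so line and age cannot be told apart. Slc17a6, with 1139, 796 and 519.5 on YFPH amygdala arrays, and Grp, with 2651, 4056 and 3495, were not called (-0.15 ± 0.31 (SE) and 0.49 ± 0.28 (SE), adjusted p = 0.771 and 0.219). Rspo2 was lower in the G30 amygdala neurons, with 163, 283 and 217 on G30 amygdala arrays and 2961, 2634 and 2560.1 on YFPH amygdala arrays (-3.56 ± 0.28 (SE), adjusted p = 1.94e-11). The protease gene Prss23 (-3.73), the Hippo pathway kinase gene Lats2 (-3.07), the nicotinic receptor modulator gene Lynx1 (-2.92) and Pcdh20 (-2.72) were lower too. Id4, an inhibitor of basic helix-loop-helix factors, was higher, with 850.2, 1016 and 1013 on G30 amygdala arrays and 108, 148 and 100.2 on YFPH amygdala arrays (2.87 ± 0.27 (SE), adjusted p = 9.86e-10). The prolyl hydroxylase gene Egln3 (2.44), Cdh13 (2.42) and the calcineurin regulator gene Rcan2 (2.31) were higher as well. Gad1 (2.60 ± 0.33 (SE), adjusted p = 4.83e-07) and Slc32a1 (1.52 ± 0.29 (SE), adjusted p = 0.000324) were the 2 GABA genes of 4 that were called, both higher in the G30 amygdala neurons.

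The regional difference of the G30 line was set against that of the YFPH line, whose arrays are separate. The YFPH amygdala mice (P91 to P106) were older than the YFPH cingulate mice of stated age (P65 and P80). The third YFPH cingulate array was scanned in the second scan year, the other YFPH arrays used here in the first. Region and age thus cannot be told apart in the YFPH difference, nor in any interaction given here or below. YFPH amygdala minus YFPH cingulate gave 632 called genes (6.8%), 346 higher (3.72%) and 286 lower (3.08%). Of the genes higher in the amygdala, 158 were called in both lines, 12.2% of the 1294 of the G30 line and 45.7% of the 346 of the YFPH line. Of those lower, 103 were shared, 9.97% of 1033 and 36.0% of 286. Genes called in opposite directions numbered 45 (higher in the G30 amygdala, lower in the YFPH amygdala) and 48 (the reverse). The test of the interaction, G30 difference minus YFPH difference, called 1081 genes (11.6%), 550 higher (5.92%) and 531 lower (5.71%). Among them were all 45 and 48 genes of opposite direction, 33 of the 158 and 22 of the 103. For genes of opposite direction the differences add up in the interaction, so its call largely follows from how these genes were picked.

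Genes with like regional differences in both lines, picked after their values were seen, included Matn2. It rose by 3.28 in the G30 line and by 3.22 in the YFPH line, with an interaction of 0.06 ± 0.40 (SE) (adjusted p = 0.961). Slc17a6 rose by 2.39 and 1.68, and Robo1 fell by 2.09 and 1.99. Lpl, lipoprotein lipase, rose by 2.56 in the G30 line and 2.43 in the YFPH line, and Nnat, neuronatin, by 2.87 and 2.43. Grp and Rprm rose in both lines, by more in the G30 line, whose interactions were 3.53 ± 0.39 (SE) and 2.21 ± 0.28 (SE) (adjusted p = 2.13e-08 and 2.37e-07). The interaction was also called for Reln, which fell in both lines, by 4.51 in the G30 line and 2.16 in the YFPH line.

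Other genes moved in 1 line or in opposite ways. Those named for the largest interactions were chosen by these values. Crym read 3719.8, 3259 and 1888 on YFPH amygdala arrays, below 6405, 5758 and 6475 on YFPH cingulate arrays, and its interaction was the highest of the tested genes (6.34 ± 0.37 (SE), adjusted p = 6.87e-15). Itpka read 3876, 3546 and 3406 on YFPH amygdala arrays and 4201, 4297 and 3739.9 on YFPH cingulate arrays, and its interaction was 4.53 ± 0.27 (SE). Cckbr fell in the YFPH amygdala neurons (-0.91 ± 0.21 (SE)) and rose in those of G30, with an interaction of 3.73 ± 0.30 (SE). Tox, a nuclear high-mobility-group protein gene, rose by 1.99 in the G30 line and fell by 2.55 in the YFPH line, and Itgav, an integrin subunit gene, rose by 2.31 and fell by 2.23. Lats2 fell by 2.75 in the G30 line and rose by 2.98 in the YFPH line, the lowest interaction of the tested genes (-5.73 ± 0.54 (SE), adjusted p = 8.02e-10). Prss23 and Pcdh20 did the same, with interactions of -5.33 ± 0.64 (SE) and -5.29 ± 0.28 (SE). Lats2 and Prss23 were read from probe sets of a kind that can match other transcripts, and their other probe sets were not called in the G30 line (0.19 and -0.35, adjusted p = 0.156 and 0.241). The other 2 probe sets of Itgav were not called either (0.11 and -0.07, adjusted p = 0.401 and 0.71). All 4 GABA genes had called interactions, with a median of -3.62.

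**Figure D5:**
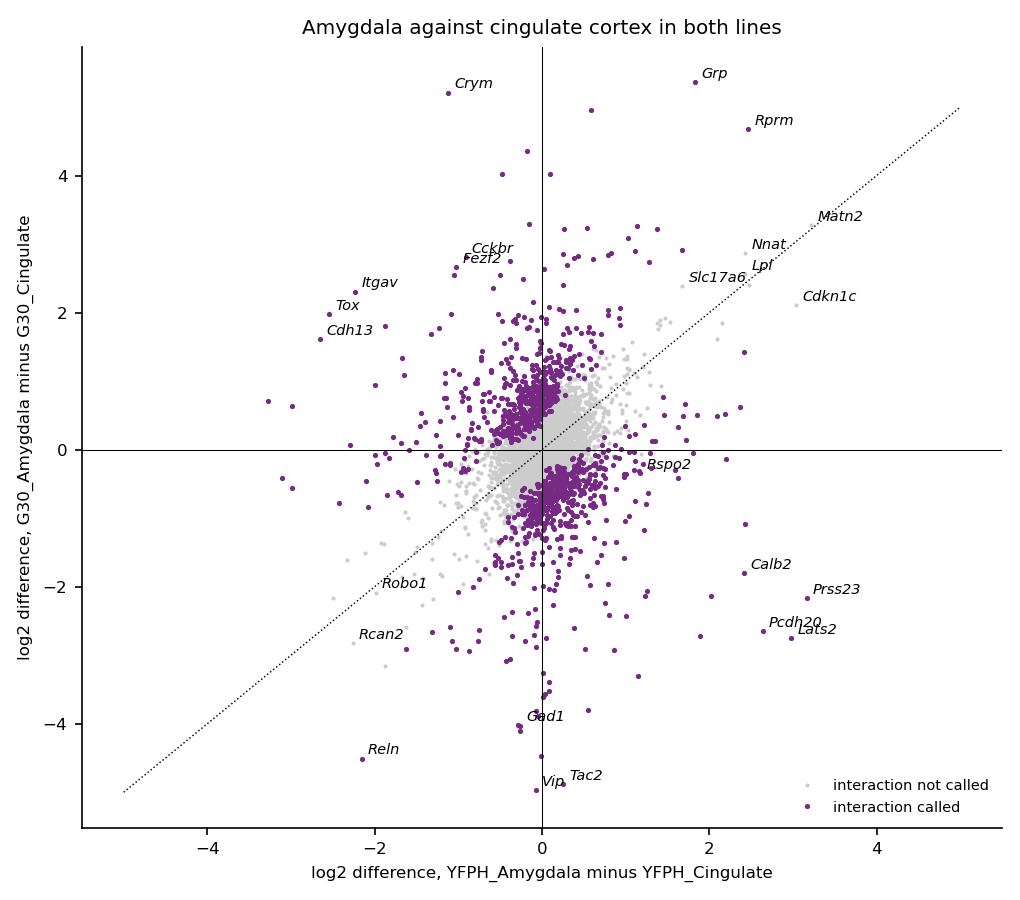
Difference between amygdala and cingulate cortex in the G30 line (vertical axis, log2) against that in the YFPH line (horizontal axis, log2), 1 point per gene; purple points have a called interaction and the dotted line marks equal differences. Matn2 lies on the line at 3.28 and 3.22, Crym and Cckbr lie above it and Lats2, Prss23 and Pcdh20 far below it.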

How the data were processed

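RNA from hand-sorted fluorescent neurons was amplified and hybridised to 1-colour Affymetrix MOE430A arrays, per the labels' protocols and the file headers. The deposited values are linear probe-set intensities (1 to 22818.24), with array medians of 285.83 to 330.39. For the authors' summary, background correction and scaling no account is given in the sources used here. The table holds no detection calls, so dim genes could not be set apart from absent ones. The deposited array records (other files without expression values) gave scan day, lot and sample notes.

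Of 22690 probe sets, 64 were controls, 20380 had a single gene symbol in the platform annotation of 2016, 691 had several and 1555 had none. RefSeq's gene table matched 20351 of the single-symbol probe sets and changed 0 symbols. Each of 12393 genes was read from its brightest probe set. Those with a mean over all 42 arrays under the 25th percentile (log2 of 7.77, an intensity of 203) were left out, and 9295 were tested. Values were taken as log2(intensity + 16), so differences of dim genes are understated. R 4.3.3 and limma 3.58.1 fitted 1 mean per group over all 42 arrays, with 28 residual degrees of freedom and trended, robust moderation; the script was tested on simulated data. Precision is limited by how many arrays each group has. The series design says that replicates come from different animals.

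Genes named are the 15 with the largest difference in each direction, up to 4 per list, a few marker genes, and up to 5 per direction in the other comparisons; further list members, Camk2a, Neurod6, Lpl and Nnat were named after their values were seen. The members and lists were chosen with earlier results of these data known. Whether equal replicate numbers pair the arrays was checked, and the alternatives tried (normalization, pseudocount, filter, probe sets, moderation, arrays in the fit, scan day and year, Gapdh ratio, left-out arrays) stand in the closing section. Promoter motifs were searched on both strands in RefSeq sequences.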

Additional observations from a re-analysis of the deposited data

Results flagged for a closer look

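For 68 of 115 named genes the difference between amygdala and cingulate cortex in the G30 line differed from that in the YFPH line in limma's test of the interaction, with Benjamini-Hochberg adjustment over all tested genes, of which 11.6% were called. The named genes were chosen for large differences in the G30 line, which is 1 term of the interaction, or for the interaction itself, so the count is a description and no test. Values in brackets are the G30 difference minus the YFPH difference (log2), with 3 arrays in each of the 4 groups, so a positive value means a higher amygdala side in the G30 line.

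Among genes that rose most in the G30 amygdala the values were Grp (3.53), Crym (6.34), Lypd1 (4.37), Rprm (2.21), Itpka (4.53), Nefm (4.51) and Nrgn (3.93). They were followed by Nefl (3.45), Rasl11b (2.13), Icam5 (2.70), Baiap2 (2.96), Myo5b (1.85), C1ql3 (2.06) and Hpcal1 (1.23). Among genes that fell most the values were Vip (-4.89), Tac2 (-5.14), Reln (-2.35), Dlx1 (-4.46), Dlx1as (-3.85), Gad1 (-3.76), Col19a1 (-3.73) and Cxcl14 (-3.84), and further Igf1 (-3.74), Eps8 (-4.35), Gad2 (-3.63), Grik1 (-3.60), Slc32a1 (-3.61), Pnoc (-3.48) and Npy (-4.45). Of these, Grp, Rprm, Rasl11b, Myo5b, C1ql3 and Hpcal1 were also called higher in the YFPH amygdala neurons and Reln lower, Crym was called lower there and Npy higher.

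Other interneuron genes with a called interaction were Cck (-1.52), Sst (-2.25), Abat (-1.89), Dlx2 (-0.96), Zeb2 (-1.84), Kcnc1 (-2.31), Calb1 (-2.24), Htr3a (-2.80) and Cnr1 (-1.68). Transcription factor genes were Satb1 (1.27), Id2 (-1.28), Fezf2 (3.69), Zbtb18 (2.62), Bcl11b (1.32), Meis2 (2.42), Rarb (0.64), Id4 (1.85) and Tox (4.53). The amygdala minus cingulate difference of Meis2 was -0.56 in the G30 line and -2.98 in the YFPH line. Transmitter and channel genes were Slc30a3 (1.14), Cckbr (3.73), Gria3 (1.17), Gabrg1 (-1.61), Kcnmb2 (-1.99), Kcnn2 (-2.00), Kcnmb4 (3.69) and Lynx1 (-1.26). Adhesion and guidance genes were Pcdh20 (-5.29), Cdh22 (3.05), Cdh13 (4.27), Nrp1 (3.07), Epha5 (1.15), Sema3a (0.72), Spon1 (1.78) and Itgav (4.54). The remaining genes were Dkk3 (-0.88), Glul (-2.03), Prss23 (-5.33), Rspo2 (-1.52) and Lats2 (-5.73). Pcdh20, Prss23, Lats2, Cdh13, Itgav, Tox, Kcnmb4, Cckbr, Fezf2, Nrp1 and Kcnc1 were called in opposite directions in the 2 lines.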

How the results depend on the processing

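The 30 genes with the largest differences were called in the same direction under each of the 21 alternatives that tested them; 12 of them were not tested under the 50th percentile filter. Of 108 named genes that were called, 92 kept their call under every alternative in which they were tested and 0 reversed. Bcl11b, Calb1, Gabrb1, Gabre, Gria3, Gria2, Grik2, Rarb, Tyrobp, Vtn, Adcyap1, Bdnf, Camk2b, Kcnma1, Slit1 and Slit3 lost it in at least 1. Of genes not called, Pvalb turned to -0.11 with the Gapdh ratio as a covariate, and Gal (0.092), Otp (-0.026), Fgfr3 (-0.014), Gfap (-0.016) and Prkcd (0.0995) turned with scan year as a block and in the second scan year only, Otp also without the second G30 cingulate array (-0.012 to 0.16 over left-out arrays). Genes called between G30 amygdala and G30 cingulate neurons numbered 1166 with scan year as a block, 1047 of them among the 2327, and 1115 in the second scan year only, 1005 of them among the 2327. The setting of the second scan year only was added after seeing the data and keeps 1 amygdala array, assumed to vary like the other groups. Scan year as a block rests on the same amygdala array, since no other group was scanned in the third year. Both settings are thus 1 check on the G30 amygdala side. The same settings gave 1197 and 1131 against G30 somatosensory neurons. Against YFPH amygdala neurons the count was 140 with scan year as a block, 511 with the Gapdh covariate and 1022 without arrays marked abnormal, and scan year as a block gave 643 for the interaction. The cause was not tested. Leaving out 1 array at a time gave 1717 to 2375 for the main comparison, 1648 to 2282 against G30 somatosensory, 995 to 1466 against YFPH amygdala and 857 to 1151 for the interaction. Median centring gave 1161 higher and 1144 lower genes, 50.4% higher against 55.6%. With scan year as a block, potassium and HCN channel genes called higher numbered 1 in place of 4, GABA-A receptor genes 0 in place of 2, sodium and calcium channels 0 in place of 2, neuropeptide precursors 1 in place of 2, early response genes 1 in place of 2, axon guidance genes 8 in place of 15, cadherins 4 in place of 6, central amygdala, microglia and endothelial genes 0 in place of 1 each, and pallial factors called lower 1 in place of 3. Scan day as a fixed block could not be fitted. A replicate block gave 2339, 2317, 1599 and 1091 genes for the 4 comparisons; same-numbered arrays of the G30 groups deviated together with r of 0.157, 0.056 and 0.027, so the numbers were not taken as pairs. Of 30 named called genes with further probe sets, 10 (Abat, Gria2, Id4, Itgav, Kalrn, Kcnma1, Lats2, Prss23, Slc32a1 and Slit2) had none called in the same direction, and none had one called in the opposite direction.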

Other observations

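The marker genes and a few of the leading genes were followed through the 14 groups, as mean log2(intensity + 16) ± SD over 3 arrays. Grp was 12.21 ± 0.23 in G30 amygdala, 11.72 ± 0.31 in YFPH amygdala and 11.66 ± 0.64 in YFPH hippocampal neurons, its 3 highest groups. The gaps between these neighbours were not tested. Crym was 11.65 ± 0.21 in G30 amygdala neurons, below the layer 6 cells of cingulate cortex (12.70 ± 0.20). It was also below YFPH cingulate (12.60 ± 0.09) and YFPH hippocampal neurons (12.60 ± 0.29). Unsorted cingulate cells of the G42 line (11.82 ± 0.46) and of the GIN line (11.69 ± 0.02) had higher means as well. Lypd1 and Slc30a3 had their highest group mean in G30 amygdala neurons (13.12 ± 0.22 and 12.37 ± 0.26). Rprm was 11.92 ± 0.10 there and 12.23 ± 0.17 in the layer 6 cells. Gad1 was 8.08 ± 1.52 in G30 amygdala neurons, the widest spread among these values, and 12.11 ± 0.14 in G30 cingulate neurons. Vip was 7.51 ± 0.07 in G30 amygdala neurons and 12.47 ± 0.30 in G30 cingulate neurons.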
